A study of Mus musculus with 54 samples.

Results

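The genes of the mitochondrial genome were followed through kidney, brain and heart of aged mice and through the brain of a dementia model. The members were all genes whose symbol starts with mt-, and 37 of the 54232 genes in the count files met this rule: 13 protein-coding genes, 2 rRNA genes and 22 tRNA genes. The aged mice were male BL6 mice of 20 months that had received vehicle (DMSO, PEG400 and saline) or Cmpd60, an inhibitor of the histone deacetylases HDAC1 and HDAC2, at 22.5 mg/kg in daily intraperitoneal injections for 14 days. They gave 5 vehicle and 6 Cmpd60 kidney libraries, 6 and 6 brain libraries, and 6 and 5 heart libraries. The dementia model was the APPSWE-1349 mouse on a BL6 background, which carries a human amyloid precursor protein transgene (the isoform of 695 amino acids) with the Swedish mutation, and the same dosing was used at 6–7 months. Its brain libraries were 6 of vehicle-treated and 4 of Cmpd60-treated transgenic mice, and 5 and 5 of control littermates.

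The mitochondrial genome is a small circle present in many copies per cell. Its protein-coding genes encode subunits of complexes I, III, IV and V of oxidative phosphorylation, and its rRNAs and tRNAs serve the ribosome that translates them inside the organelle. Each strand is read into a long precursor from which the tRNAs are cut out, so that most rRNAs and mRNAs are released from the same transcript. The mRNAs receive a poly(A) tail in the organelle, with mt-Nd6, the only protein-coding gene read from the other strand, as an exception. Pieces of the mitochondrial genome have also been copied into nuclear chromosomes during evolution, and such nuclear copies can hold the same letters as the mitochondrial gene.

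The 13 protein-coding genes differed in how much of their sequence recurs in the nuclear chromosomes of the mouse reference NCBIM37, the build in which all coordinates here are given. This build may differ from the one used for the deposited counts. When each gene was read in windows of 100 bases, mt-Co2, mt-Atp8, mt-Atp6, mt-Co3 and mt-Nd4l had an exact nuclear match in every window and mt-Nd3 in 98.8% of them. The share was 60.8% for mt-Nd4, 30.8% for mt-Co1 and 3.19% for mt-Nd2, and it was 0.0% for mt-Nd1, mt-Nd5, mt-Nd6 and mt-Cytb. In windows of 50 bases it was 62.2% for mt-Nd4, 51.1% for mt-Co1, 8.29% for mt-Nd2 and 7.61% for mt-Nd5, and 0.0% for mt-Nd1, mt-Nd6 and mt-Cytb. These windows count exact matches only. With mismatches allowed, chromosome 4 matched mt-Nd6 over 519 bases at 93.6% identity, mt-Cytb over 1143 at 92.9% and mt-Nd5 over 1080 at 92.3%. Chromosome 2 matched mt-Co1 over 1545 bases at 97.6% identity. A single stretch on the minus strand of chr1:24618374-24623027 held matches to 8 of the 13 genes, of which 5 were identical over their whole length, and it ended within mt-Nd4 after 876 of 1378 bases. The sequences that show this layout are given from 5′ to 3′ on the plus strand of chrM. For mt-Atp8 (chrM:7766-7969, whole gene, identical on chromosome 1) and the first 100 bases of mt-Atp6 (chrM:7927-8026), capitals mark the 43 bases that belong to both genes. For mt-Nd4 (chrM:10993-11092), capitals mark the bases past the end of the chromosome 1 copy. For mt-Co1 (chrM:6343-6443), the capital marks A1066T, the mitochondrial base first, its position counted from 1 at the start of the gene and then the base on chromosome 1.
mt-Atp8: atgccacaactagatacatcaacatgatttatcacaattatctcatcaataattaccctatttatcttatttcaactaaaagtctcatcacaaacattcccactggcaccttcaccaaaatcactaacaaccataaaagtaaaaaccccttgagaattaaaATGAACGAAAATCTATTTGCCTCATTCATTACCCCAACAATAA
mt-Atp6: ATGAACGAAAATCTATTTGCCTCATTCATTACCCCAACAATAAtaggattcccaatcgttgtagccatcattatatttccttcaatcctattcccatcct
mt-Nd4: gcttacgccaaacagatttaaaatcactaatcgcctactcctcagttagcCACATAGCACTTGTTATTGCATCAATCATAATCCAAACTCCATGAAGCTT
mt-Co1: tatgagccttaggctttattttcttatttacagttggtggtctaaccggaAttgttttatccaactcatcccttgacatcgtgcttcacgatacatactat

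A read from a gene such as mt-Atp8 therefore matches both genomes without a mismatch, and the counting set apart reads that aligned in more than 1 place. Reads with more than 1 alignment made up 10.8% to 12.2% of all reads in heart, 6.29% to 7.46% in kidney, 3.77% to 4.33% in aged brain and 3.08% to 3.59% in the brain of the APPSWE cohort. Which genes these reads came from was not tested.

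The share of gene counts on the 37 genes differed between the tissues. It was 15.3% to 19.2% in heart, 4.81% to 7.48% in kidney, 2.73% to 4.2005% in aged brain and 1.52% to 2.70% in the APPSWE cohort. Heart, kidney and aged brain did not overlap, and neither did aged brain and the brain of the APPSWE cohort, which differ in age and cohort. Gene counts per library were 23584609 to 57430113, so that a count of 0 in a library allows a level of at most 0.0522 to 0.127 CPM (counts per 1e6 gene counts), at 3 counts and for counting error only. The labelled tissue was borne out by marker genes, with the 7 kidney markers summing to 7428 to 15925 CPM in kidney and at most 7.99 CPM elsewhere, the 7 brain markers to 9747 to 11852 CPM in brain and at most 82.9 CPM elsewhere, and the 7 heart markers to 47820 to 61569 CPM in heart and at most 325 CPM elsewhere. In whole tissue, more mitochondrial RNA per cell cannot be told apart from more cells of a type rich in it.

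**Figure D1:**
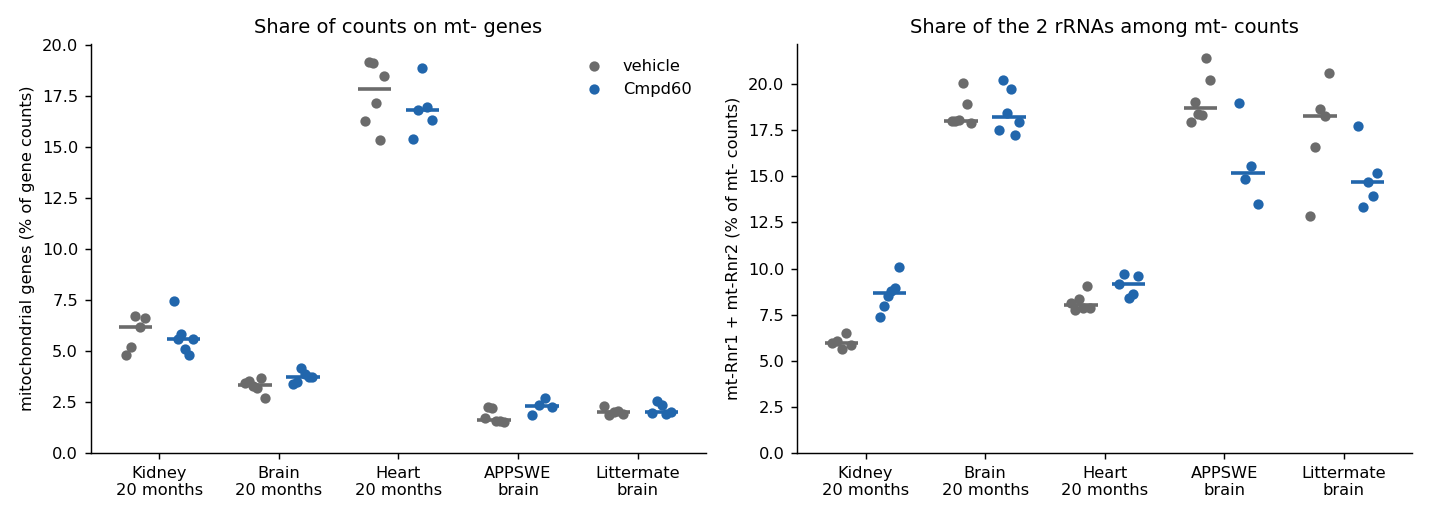
Share of gene counts on the 37 mitochondrial genes (left, %) and share of mitochondrial counts on the 2 rRNAs (right, %), with 1 point per library, grey for vehicle and blue for Cmpd60, and a line at the group median. Heart stands at 15.3% to 19.2% on the left, and on the right the 6 Cmpd60 kidneys (7.38% to 10.1%) lie above the 5 vehicle kidneys (5.66% to 6.50%).

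Within the group shares, Cmpd60 and vehicle libraries overlapped in every tissue. The median share was 5.59% with Cmpd60 and 6.19% with vehicle in kidney, 3.74% and 3.36% in aged brain, and 16.8% and 17.8% in heart. In the APPSWE mice it was 2.32% with Cmpd60 and 1.65% with vehicle, with 1.87% to 2.70% in the 4 Cmpd60 libraries and 1.52% to 2.25% in the 6 vehicle libraries. In the littermates the medians were 2.01% and 2.02%.

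Among the single genes, mt-Co1, the catalytic subunit of complex IV, led in each aged tissue. Its level per length in the vehicle-treated mice, in CPM per kb on library sizes shared by the 34 aged libraries, was 57250.1 ± 8686 in heart, 12638 ± 2045 in kidney and 6431 ± 743 in brain (SD, n = 6, 5 and 6). mt-Cytb, the only mitochondrially encoded subunit of complex III, followed at 30101 ± 4175 in heart, 9649 ± 1824 in kidney and 3156 ± 248 in brain. mt-Nd1, a core subunit of complex I, was next in each tissue at 18798 ± 1909, 5560.2 ± 1059 and 2663 ± 270 (heart 6, kidney 5 and brain 6 libraries). The next ranks differed between tissues, since the 16S rRNA mt-Rnr2 and the 12S rRNA mt-Rnr1 stood at ranks 4 and 6 in brain but at ranks 7 and 8 in kidney and heart. Ranks 2 to 7 in brain had overlapping ranges between each pair of neighbours, and in kidney mt-Co1 and mt-Cytb overlapped too. In heart, the ranges of mt-Co1, mt-Cytb and mt-Nd1 were apart from each other.

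The protein-coding genes with few counts were the 6 found whole or nearly whole as exact nuclear copies, together with mt-Nd6. The 6 genes with an exact nuclear match in over 98% of windows had a median level of 132 CPM per kb in heart, 60.3 in kidney and 19.2 in brain. The 4 genes with an exact match in no window of 100 bases had medians of 17997, 4994 and 2112, and the 3 genes with one in part of their windows 16298, 4552 and 1742. mt-Nd6, a complex I subunit with no exact nuclear match in any window, was the exception at 555 ± 45.2 CPM per kb in heart, 175 ± 109 in kidney and 143 ± 21.7 in brain. Among the 6 genes with exact copies, mt-Co2 was highest at 651 ± 92.8 in heart, 241 ± 175 in kidney and 70.2 ± 11.6 in brain. mt-Atp8, a subunit of complex V, was at 0 in 42 of 54 libraries and held 438 counts in all, 396 of them in vehicle-treated heart 66. How far the count of a copied gene stands for its transcript was not tested, and level per length compares these genes only as they were counted.

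**Figure D2:**
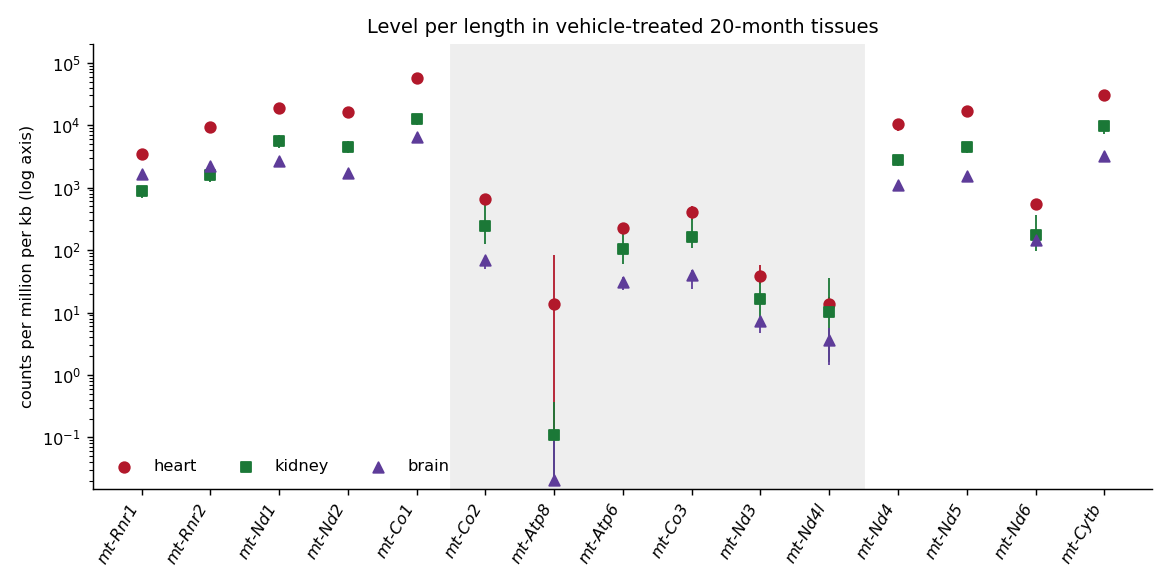
Mean level of the 2 rRNA and 13 protein-coding genes in genome order (CPM per kb, log axis) in vehicle-treated heart (n = 6), kidney (n = 5) and brain (n = 6), with lines from the lowest to the highest library; libraries at 0 cannot be shown on this axis. Grey bands mark the 6 genes with an exact nuclear match in over 98% of windows of 100 bases, and these genes lie lowest together with mt-Nd6.

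The tRNA genes were nearly absent. All 22 together held 32436 of the 104424389 mitochondrial counts of the 54 libraries, 13 of them had no count in any library, and mt-Th had 5 counts. Only 8 had more than 10 counts, led by mt-Tw, the tryptophan tRNA, with 45.2% of all tRNA counts, mt-Tp, for proline, with 22.3%, mt-Tt, for threonine, with 17.1%, and mt-Tq, for glutamine, with 12.4%. These libraries were made from RNA bound to oligo-dT, and mature tRNAs carry no poly(A) tail. Of the 8 tRNA genes on the minus strand, 2 had no count. mt-Tw starts within the last 2 bases of mt-Nd2 on the same strand, and reads from such neighbours may not be separable.

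Between the tissues of the vehicle-treated aged mice, the mitochondrial genes were highest in heart. All values of this comparison come from 1 fit over the 34 aged libraries, as if each came from a separate mouse, because no label ties the tissues to mice. Against kidney, 20 of the 23 members tested rose in heart and none fell (edgeR quasi-likelihood test, adjusted p under 0.05), where 56.7% of all genes were called. Against brain, 19 rose and none fell, with 72.1% of all genes called. Between kidney and brain, 11 protein-coding genes were higher in kidney, while both rRNAs and 6 tRNAs were higher in brain, with 72.5% of all genes called. mt-Atp8 was called higher in heart than in kidney and brain only with vehicle heart 66, without which its log2 differences were -2.84 and -1.17, and mt-Nd3 and mt-Nd4l were called higher in kidney than in brain only with vehicle kidney 47, without which they differed by 0.54 (adjusted p = 0.087) and 0.07 (adjusted p = 0.91, edgeR). The median log2 difference over all genes was -0.02 for heart against kidney, -0.44 for heart against brain and -0.24 for kidney against brain.

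The protein-coding genes did not keep the same distance between tissues. From brain to heart, mt-Nd5 rose by 3.46 ± 0.14 on the log2 scale (± SE), mt-Cytb by 3.25 ± 0.13, mt-Co1 by 3.15 ± 0.14 and mt-Nd1 by 2.82 ± 0.12, with the largest adjusted p of these 4 at 1.49e-21 (edgeR). mt-Nd6, the gene of the other strand, rose by 1.96 ± 0.21 (adjusted p = 3.55e-10, edgeR). From brain to kidney, mt-Cytb rose by 1.61 ± 0.12, mt-Nd5 by 1.51 ± 0.13 and mt-Co1 by 0.97 ± 0.13, while mt-Nd6 differed by 0.29 ± 0.22 and was not called (adjusted p = 0.23, edgeR), and without vehicle kidney 47 it differed by -0.17. Against kidney, heart was higher by 2.18 ± 0.14 for mt-Co1, 1.96 ± 0.14 for mt-Nd5 and 1.64 ± 0.13 for mt-Cytb.

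The rRNA counts ran against the mRNA counts between kidney and brain. The libraries hold RNA bound to oligo-dT, and how far these counts stand for rRNA levels was not tested. mt-Rnr1 was lower in kidney by a log2 difference of -0.91 ± 0.12 (adjusted p = 9.43e-09) and mt-Rnr2 by -0.46 ± 0.11 (adjusted p = 0.000254, edgeR), while 11 of 13 mRNAs were higher there. In heart both rRNAs were higher than in kidney, by 1.97 ± 0.12 and 2.55 ± 0.12, and higher than in brain, by 1.06 ± 0.11 and 2.08 ± 0.11. The rRNAs thus made up 17.2% to 20.2% of the mitochondrial counts in aged brain, 7.77% to 9.73% in heart and 5.66% to 10.1% in kidney. The tRNA mt-Tw was at 37.9 ± 10.9 CPM in heart, 5.28 ± 0.78 in brain and 1.25 ± 0.77 in kidney (SD, n = 6, 6 and 5), and its ranges did not overlap. mt-Tp was at 8.80 ± 1.28, 5.65 ± 0.46 and 1.39 ± 0.80 CPM. From brain to heart mt-Tt rose by 2.72 ± 0.22 and mt-Tq by 1.85 ± 0.38 on the log2 scale, and against kidney heart was higher by 3.36 ± 0.25 and 2.28 ± 0.42. The 6 tRNAs higher in brain than in kidney were mt-Tw (log2 difference of kidney minus brain -2.12 ± 0.31), mt-Tp (-2.03 ± 0.25), mt-Tt (-0.64 ± 0.25), mt-Te, mt-Ts1 and mt-Ta. The glutamate tRNA mt-Te averaged 0.467 CPM in brain, 0.383 in heart and 0.0323 in kidney, and the serine tRNA mt-Ts1 0.0865, 0.203 and 0.0118 CPM. Both were called higher in heart than in kidney too. The alanine tRNA mt-Ta was at 0 in all 5 kidneys and averaged 0.0849 CPM in brain. The mean levels of mt-Ta, those of mt-Ts1 in brain and kidney, and that of mt-Te in kidney were within what a count of 0 allows.

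The nuclear subunits of oxidative phosphorylation mostly had the tissue order of the mitochondrial mRNAs, not that of the rRNAs and tRNAs between kidney and brain. Of the 79 nuclear subunits of complexes I to V that were tested, 76 were higher in heart than in kidney with a median log2 difference of 1.30, 76 were higher in heart than in brain with a median of 2.14, and 69 were higher in kidney than in brain with a median of 0.86, against 3 lower in each comparison. Of all genes, 56.7%, 72.1% and 72.5% were called in these comparisons. Lrpprc, which stabilizes mitochondrial mRNAs, was higher in heart than in brain by 2.38 ± 0.09 and than in kidney by 1.16 ± 0.09. Tfam, which packages the mitochondrial genome and takes part in its transcription, was higher in heart than in brain by 0.82 ± 0.07. Between heart and kidney Tfam differed by 0.10 ± 0.08 (adjusted p = 0.29, edgeR).

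In the kidney of the aged mice, Cmpd60 was set against vehicle to ask what the inhibitor does to this organ. The titles and source names of the 11 kidney samples give the groups used here, whereas their treatment field gives the opposite group for each of them, and if that field were right every kidney direction would turn. No member was called among the 18 tested, where 0.300% of all genes were called. An unadjusted p under 0.05 was reached by 3 members and by 2346 of all 20698 genes tested. The 2 members with the smallest p were the rRNAs. On the kidney libraries' own sizes, mt-Rnr1 was at 695, 740.1, 1046, 1017 and 977 CPM in the vehicle kidneys and at 1053 to 1581 CPM with a median of 1237 in the Cmpd60 kidneys. The groups did not overlap, as in 2.30% of all genes tested, and the closest libraries were a vehicle kidney at 1046 and a Cmpd60 kidney at 1053. mt-Rnr2 was at 2091, 2417, 2922, 2979 and 3019 CPM with vehicle and at 2956 to 4349 with a median of 3592 with Cmpd60, so that 5 of 6 Cmpd60 kidneys lay above all vehicle kidneys.

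The fitted log2 fold change was 0.53 ± 0.15 for mt-Rnr1 (adjusted p = 0.17) and 0.42 ± 0.13 for mt-Rnr2 (adjusted p = 0.23, edgeR). DESeq2 gave 0.54 with an adjusted p of 0.021 and 0.42 with 0.030, and the fit over all 34 aged libraries gave adjusted p-values of 0.0084 and 0.030. The cause of the differing calls was not tested. Leaving out each library in turn kept the value between 0.46 and 0.60 for mt-Rnr1 and between 0.35 and 0.47 for mt-Rnr2. Among the 12 protein-coding genes tested, 1 was above 0 and their median was -0.23, but without vehicle kidney 47 these were 7 of 12 and 0.02, so their direction rested on that library. mt-Nd1 was at 4421 to 6970 CPM with vehicle and at 4083 to 6896 with Cmpd60 (log2 difference -0.17 ± 0.16), and mt-Co1 at 16216 to 23968 and at 15791 to 27666 (-0.08 ± 0.17).

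The remaining member with an unadjusted p under 0.05 was mt-Nd4l, a complex I subunit, at -1.50 ± 0.67 (adjusted p = 0.41, edgeR). This value rested on vehicle kidney 47, at 11.2 CPM where the other vehicle kidneys were at 0.498 to 1.699, and it was -0.09 without that library. The same library stood apart in mt-Co2 (395 CPM against 90.9 to 156), mt-Atp6 (162 against 42.8 to 62.4), mt-Co3 (262 against 88.0 to 104) and mt-Nd6 (199.6 against 53.8 to 82.7). It also had the highest share of low-quality alignments in kidney, 5.46% of reads, and of reads not aligned, 2.31%. Without it, the log2 difference of mt-Co2 went from -0.48 to 0.07. The number of genes detected overlapped between the groups (18512 to 22724 with Cmpd60 and 20069 to 23062 with vehicle), as did the kidney markers, which summed to 7428 to 15925 CPM with Cmpd60 and 12834 to 15834 CPM with vehicle. Their part in the rRNA difference was not tested.

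**Figure D3:**
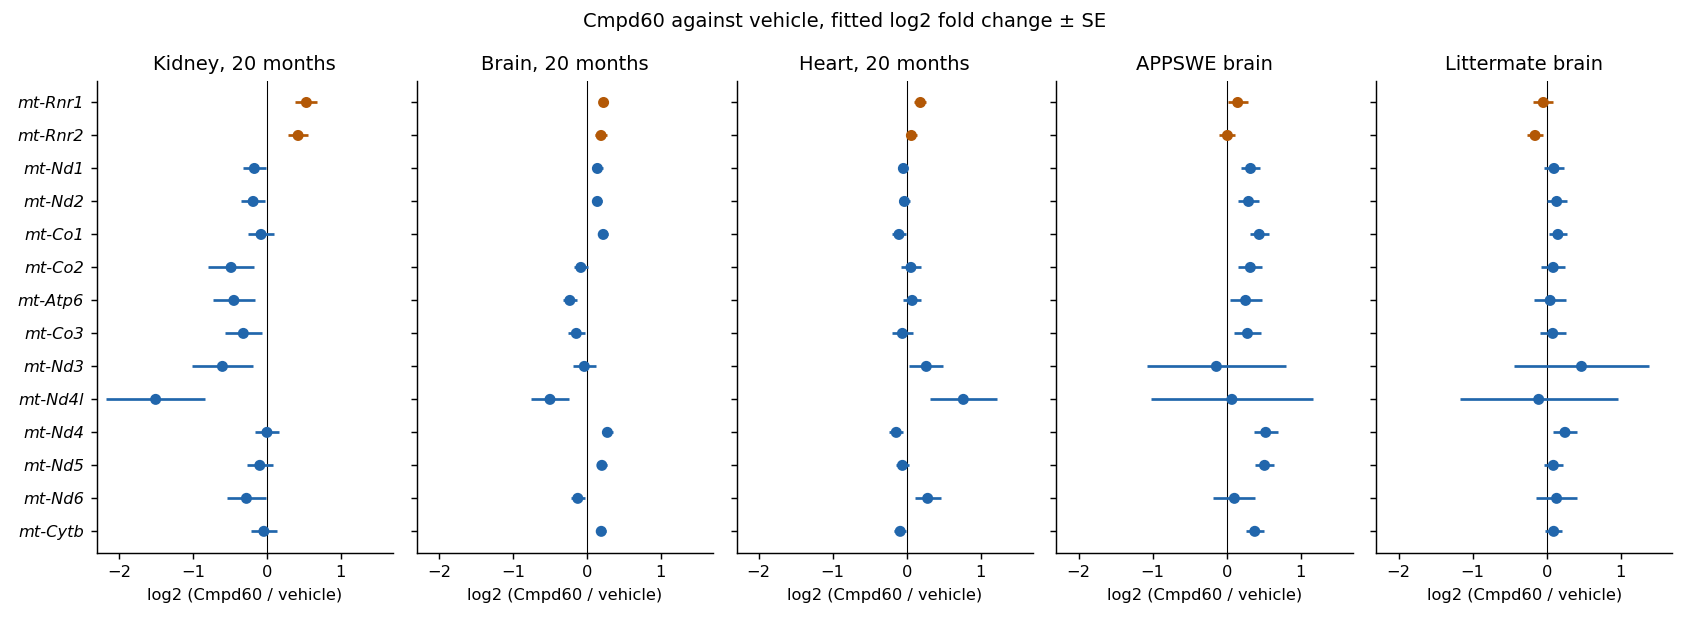
Fitted log2 fold change of Cmpd60 against vehicle (point) with its SE (line) for 2 rRNA genes (orange) and 12 protein-coding genes (blue) in genome order, in 5 comparisons. In kidney the rRNAs lie at 0.53 and 0.42 while 11 of 12 mRNAs are below 0 (5 of 12 without vehicle kidney 47), and in the APPSWE brain 11 of 12 mRNAs are above 0; no gene passed an adjusted p of 0.05 in edgeR.

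In the aged brain, the abundant mitochondrial mRNAs and the rRNAs were at higher levels with Cmpd60, and none of the 22 members tested was called, where 0.0205% of all genes were called. An unadjusted p under 0.05 was reached by 8 members, of which mt-Nd4, mt-Nd5, mt-Co1, mt-Cytb, mt-Nd2, mt-Rnr1 and mt-Rnr2 were higher and mt-Atp6 lower. Of all 24438 genes tested, 3368 reached it. mt-Nd4, a core subunit of complex I, was at 1488 to 2098 CPM with a median of 1869 with vehicle and at 2008 to 2544 with a median of 2211 with Cmpd60, and 5 of 6 Cmpd60 brains lay above all vehicle brains. Its log2 fold change was 0.28 ± 0.07 (adjusted p = 0.13, edgeR), and DESeq2 gave an adjusted p of 0.027. mt-Rnr1 was at 1582 to 2118 CPM with vehicle and at 2057 to 2396 with Cmpd60, a log2 fold change of 0.23 ± 0.07 (adjusted p = 0.16, edgeR, and 0.049 in DESeq2).

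The log2 difference was 0.22 ± 0.07 for mt-Co1, 0.20 ± 0.06 for mt-Nd5, 0.19 ± 0.06 for mt-Cytb, and 0.14 ± 0.07 for both mt-Nd1 and mt-Nd2. mt-Co1 was at 9371 to 13037 CPM with vehicle and at 12760 to 15130.2 with Cmpd60. The groups overlapped in each of the members, where 0.925% of all genes were free of overlap. Vehicle brain 32 was the lowest library of mt-Co1, mt-Nd4, mt-Cytb and mt-Rnr1, and without it the log2 fold change of mt-Nd4 was 0.22 with an adjusted p of 0.21. mt-Atp6, a complex V subunit copied whole in the nuclear genome, was at 18.4 to 30.1 CPM with vehicle and at 20.3 to 23.4 with Cmpd60 (-0.23 ± 0.09, adjusted p = 0.28). The 79 nuclear subunits lay on the other side of 0: 3 of them were above 0, their median was -0.14, and none was called, while the median of all genes was 0.01. The 5 cerebellar markers summed to 501 to 794 CPM with vehicle and to 330 to 654 CPM with Cmpd60. Of the 7 general brain markers, 6 were above 0 with a median log2 difference of 0.14 and 5 had an unadjusted p under 0.05, and their sums were 9747 to 10962 CPM with vehicle and 9987 to 11423 CPM with Cmpd60. The number of genes detected was 24939 to 25861 with vehicle and 25850 to 28017 with Cmpd60. The part of these in the mitochondrial values was not tested.

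In the heart, none of the 21 members tested was called, where 1.18% of all genes were called, and DESeq2 called none either. An unadjusted p under 0.05 was reached by 2626 of all 19452 genes tested. Among the members only mt-Rnr1 had one, at 2259 to 3085 CPM with vehicle and at 2906, 3389, 2810.2, 2971 and 2904 CPM with Cmpd60 (log2 fold change 0.18 ± 0.08, adjusted p = 0.33, edgeR). mt-Rnr2 was at 10419 to 13042 CPM with vehicle and at 10864 to 13335 with Cmpd60 (0.06 ± 0.08). The protein-coding genes were spread around 0, 5 of 12 above it, with a median of -0.04, and without Cmpd60 heart 68 none of the 12 was above 0 (median -0.08). mt-Co1 differed by -0.10 ± 0.10 and mt-Nd4 by -0.14 ± 0.10. No member was free of overlap between the groups, where 2.69% of all genes were. mt-Nd6 at 0.28 ± 0.17 and mt-Nd4l at 0.76 ± 0.45 rested on Cmpd60 heart 68, which held 492 CPM of mt-Nd6 against 214 to 240 in the other Cmpd60 hearts and 16.2 CPM of mt-Nd4l against 1.86 to 3.91. Without that library they were -0.03 and -0.24.

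**Figure D4:**
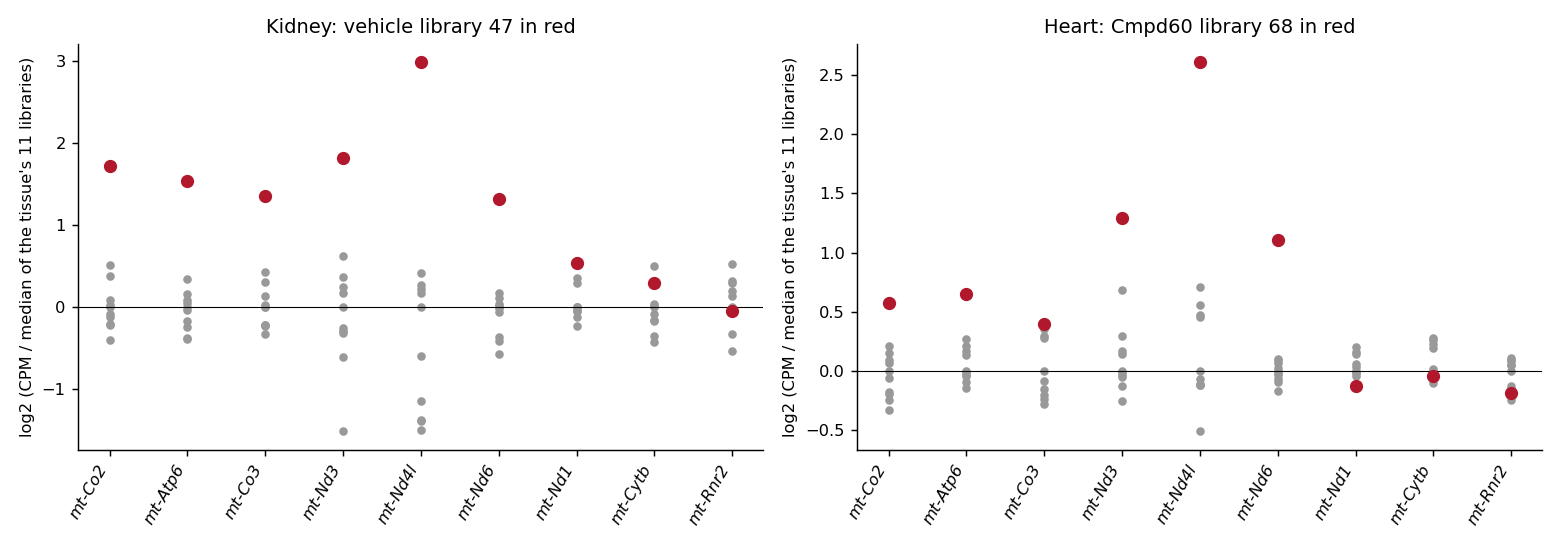
Level of 9 mitochondrial genes in each of the 11 kidney (left) and 11 heart libraries (right), as log2 of CPM over the median of the tissue, with vehicle kidney 47 and Cmpd60 heart 68 in red. Both libraries are the highest of their tissue in the copied genes mt-Co2, mt-Atp6, mt-Co3, mt-Nd3 and mt-Nd4l and in mt-Nd6, by most in mt-Nd4l (11.2 CPM in kidney 47 and 16.2 CPM in heart 68), and both stay within the other libraries in mt-Cytb and mt-Rnr2. The copied gene mt-Atp8 was instead highest in Cmpd60 kidney 54 and vehicle heart 66.

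In the brain of the APPSWE mice, Cmpd60 was compared with vehicle in transgenic mice and in littermates within 1 fit over 20 libraries. No member was called in transgenic mice or in littermates, where 0% of all genes were called in each, and DESeq2 called none either. In the transgenic mice, 11 of the 12 protein-coding genes tested were above 0 with a median log2 difference of 0.31, while all genes had a median of 0.02. Of the 79 nuclear subunits of complexes I to V, 10 were above 0 with a median of -0.14. An unadjusted p under 0.05 was reached by 8 members and by 2044 of all 23273 genes tested. mt-Nd5 was at 2097, 2212, 2620.3, 2080.4, 1718 and 1708 CPM in vehicle-treated mice and at 2036, 3139, 3458 and 3185 CPM in Cmpd60-treated mice. Thus 3 of 4 treated mice lay above all vehicle-treated mice, and the other lay below their median. The log2 fold change was 0.51 ± 0.13 (adjusted p = 0.41, edgeR). Without a filter on low counts its adjusted p was 0.029, and leaving out each library in turn gave 0.43 to 0.65.

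mt-Nd4 differed by 0.53 ± 0.16, mt-Co1 by 0.44 ± 0.13, mt-Cytb by 0.38 ± 0.12, mt-Nd1 by 0.32 ± 0.13 and mt-Nd2 by 0.29 ± 0.13, each with an adjusted p of at least 0.41. mt-Rnr1 (0.15 ± 0.14) and mt-Rnr2 (0.01 ± 0.11) were nearer to 0. The tRNAs mt-Te and mt-Ta also had an unadjusted p under 0.05, on a mean of 1.06 CPM, with 3.20 CPM in 1 mouse, and a mean of 0.0910 CPM in the Cmpd60-treated mice. No member was free of overlap, where 1.34% of all genes were. In the littermates mt-Nd5 was at 2230.4 to 2986 CPM with vehicle and at 2232 to 3267 with Cmpd60, 0.09 ± 0.12 on the log2 scale, and mt-Co1 differed by 0.15 ± 0.13. There 11 of the 12 protein-coding genes tested were above 0 with a median of 0.10, and 19 of the 79 nuclear subunits with a median of -0.09. No member was free of overlap, where 0.507% of all genes were. Among the members only mt-Ta had an unadjusted p under 0.05, as did 875 of all 23273 genes tested.

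The difference between genotypes was tested directly. The interaction of genotype and treatment was 0.42 ± 0.18 for mt-Nd5 (adjusted p = 0.97), and no member was called, where 0% of all genes were. Between vehicle-treated transgenic and littermate mice no member was called, where 0.00859% of all genes were, and mt-Nd5 differed by -0.27 ± 0.12 (adjusted p = 0.54, edgeR). Between the Cmpd60-treated mice of both genotypes no member was called, where 0% of all genes were, and mt-Nd5 differed by 0.15 ± 0.13. An unadjusted p under 0.05 was reached by 2 members for the interaction, 2 between vehicle-treated and 1 between Cmpd60-treated mice. Of all 23273 genes tested, 1116, 1943 and 314 reached it in these comparisons. DESeq2 called no member. These comparisons share groups. For 1 library that the labels of the transgenic mice give as vehicle, a heading in the study's table gives Cmpd60. With it moved to that group, the value of mt-Nd5 was 0.43 (adjusted p = 0.40).

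Choroid plexus markers were read in the comparison of Cmpd60 with vehicle in transgenic mice, and none was called. Of the 5, 1 was above 0 and the median log2 difference was -0.42, and they summed to 340 to 550 CPM in the Cmpd60-treated and 375 to 1500.4 CPM in the vehicle-treated transgenic mice. Most of this sum was Ttr, which ranged from 297 to 515 CPM in the 4 treated and from 343 to 1439 CPM in the 6 vehicle-treated transgenic mice. Their part in the mitochondrial values was not tested.

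The APPSWE cohort also varied in the number of genes detected, from 15044 to 24821 per library, with medians of 22604.5 in Cmpd60-treated and 18320 in vehicle-treated transgenic mice. The Cmpd60-treated transgenic mouse with the low mt-Nd5 level had 16402 genes detected, and the other 3 had 22165 to 23402. The rRNA share of the mitochondrial counts was 18.9% in the former and 13.5% to 15.5% in the latter, with 17.9% to 21.4% in the vehicle-treated mice, which had 15555 to 20277 genes detected. Among the littermates the 4 Cmpd60-treated mice with 21743 to 24821 genes detected had rRNA shares of 13.3% to 15.2%, and the one with 15084 had 17.7%. The 5 vehicle-treated littermates were less ordered, with 12.8% at 23151 genes detected, 18.6% at 22393, 16.6% at 19669, 18.2% at 18804 and 20.6% at 15044. The part of this variation in the treatment values was not tested beyond 1 fit. With genes detected per library as a term of the fit, mt-Nd5 differed by 0.37 between treatments (adjusted p = 0.34).

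Whether the tissues differed in their response was tested within the 34 aged libraries. No member was called for heart against kidney, heart against brain or kidney against brain, where 0.350%, 0.0517% and 0.0885% of all genes were called. DESeq2 called none either, and 4, 1 and 2 members had an unadjusted p under 0.05. Of all 27105 genes tested, 3178, 2462 and 2710 had one. The 4 members for heart minus kidney were both rRNAs, mt-Nd4l and mt-Atp8. mt-Nd4l differed by 2.27 ± 0.77 (adjusted p = 0.21, edgeR), and by 0.85 without vehicle kidney 47 and 1.27 without Cmpd60 heart 68. mt-Atp8 differed by -7.15 (adjusted p = 0.22, edgeR), and by 2.42 without vehicle heart 66. For the rRNAs, the difference was -0.34 ± 0.16 for mt-Rnr1 (adjusted p = 0.40) and -0.35 ± 0.15 for mt-Rnr2 (adjusted p = 0.35, edgeR). For kidney minus brain, it was -0.34 ± 0.16 for mt-Nd1 and -0.36 ± 0.16 for mt-Nd2 (adjusted p = 0.48 each), and for heart minus brain -0.44 ± 0.18 for mt-Nd4 (adjusted p = 0.46).

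Ratios of counts within a library do not depend on the library size, and 3 of them were compared in the 5 treatment comparisons by exact two-sided permutation tests, adjusted over the 15 tests. mt-Rnr2 to mt-Nd1 sets the large rRNA against the first mRNA behind it on the same strand. In kidney its log2 ratio was -1.08, -0.94, -1.25, -0.99 and -1.03 in the vehicle mice and -0.66, -0.46, -0.35, -0.49, -0.47 and -0.37 in the Cmpd60 mice. All 6 Cmpd60 kidneys lay above the 5 vehicle kidneys, by 0.59 between the means (exact permutation p = 0.0043, the smallest that this design allows, adjusted p = 0.065). The difference lay between 0.55 and 0.63 when any library was left out. The smallest exact permutation p possible was 0.0043 in heart too, 0.0095 in the APPSWE mice and 0.0079 in the littermates. Over 15 tests, 1 test alone at such a p, in kidney or in these groups, could not pass an adjusted p of 0.05. In heart the ratio was higher by 0.11 (exact permutation p = 0.035, adjusted p = 0.14), with 3 of 5 Cmpd60 hearts above all vehicle hearts, and in aged brain by 0.05 (exact permutation p = 0.39). In the APPSWE mice it was lower by -0.33 (exact permutation p = 0.038, adjusted p = 0.14), with 3 of 4 below all vehicle-treated mice, and in the littermates the difference was -0.25 (exact permutation p = 0.21).

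The ratio of mt-Nd6 to mt-Nd5 sets the other strand against the neighbour that it overlaps by 14 bases at the end. It was lower with Cmpd60 in aged brain, at -5.74 to -5.46 against -5.58 to -4.96 with vehicle, a difference of -0.32 (exact permutation p = 0.013, adjusted p = 0.097). In the APPSWE mice the difference was -0.41 (exact permutation p = 0.057, adjusted p = 0.17), and in the littermates it was 0.16 (exact permutation p = 0.83). In kidney and heart the difference was -0.003 and 0.25, and there it rested on kidney 47 and heart 68, since without them it was 0.25 and 0.007. The ratio of mt-Rnr1 to mt-Rnr2 differed by 0.04 to 0.16 in the 5 comparisons, with exact permutation p-values from 0.12 to 0.55. Across groups, mt-Rnr1 was at 0.42 to 0.69 of the mt-Rnr2 count in brain, 0.31 to 0.42 in kidney and 0.20 to 0.27 in heart.

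**Figure D5:**
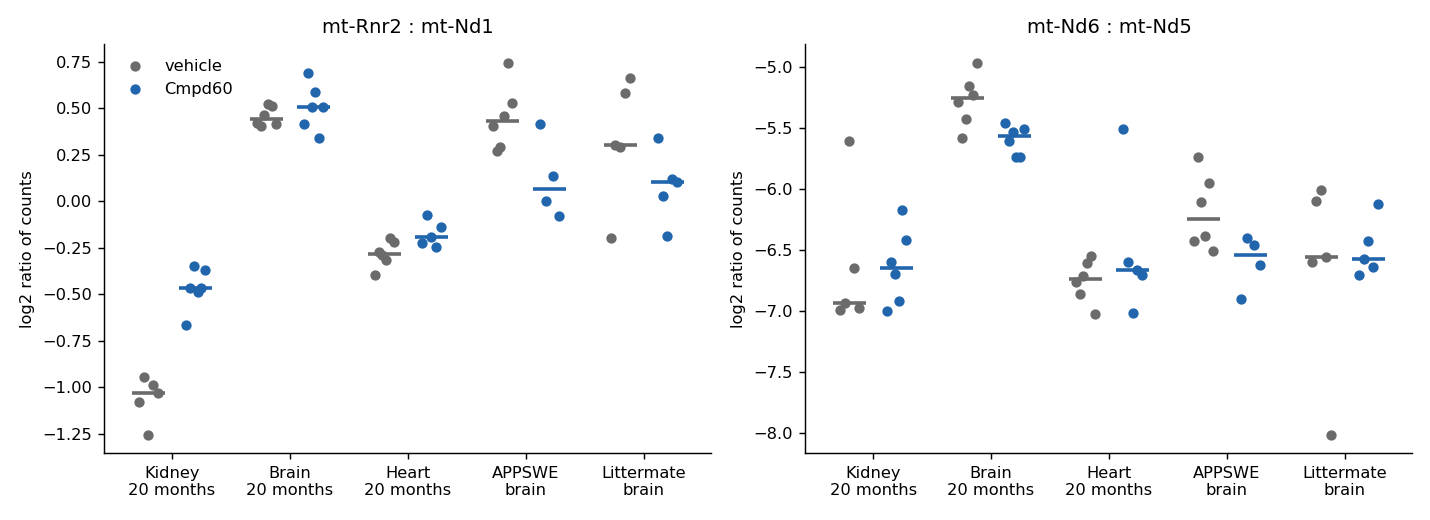
Log2 ratio of counts of mt-Rnr2 to mt-Nd1 (left) and of mt-Nd6 to mt-Nd5 (right) in each library, grey for vehicle and blue for Cmpd60, with a line at the group median. On the left, the 6 Cmpd60 kidneys (-0.66 to -0.35) lie above the 5 vehicle kidneys (-1.25 to -0.94), and on the right 3 of the 6 Cmpd60 aged brains lie below all vehicle brains.

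The nuclear genes that maintain and express the mitochondrial genome were read beside its own genes. Among the 12 genes of mitochondrial DNA replication, 9 of mitochondrial transcription, 21 of RNA processing and stability, 13 of translation and 11 regulators of mitochondrial biogenesis, none was called in kidney, aged brain, heart, APPSWE brain or littermate brain. In kidney and heart, 24 and 34 of the 79 nuclear subunits of complexes I to V were above 0, with medians of -0.05 and -0.01. Tfam differed by -0.14 ± 0.05 in aged brain (adjusted p = 0.28) and by -0.52 ± 0.22 in the APPSWE brain (adjusted p = 0.46). In heart, Lrpprc differed by -0.24 ± 0.06 (adjusted p = 0.074) and Polrmt, the mitochondrial RNA polymerase, by -0.26 ± 0.09 (adjusted p = 0.18, edgeR). Ppargc1a, a coactivator of mitochondrial biogenesis, differed by -0.10 to 0.06 in the 5 comparisons. Of the mitochondrial stress response genes, 1 of 9 tested in kidney was called, where 0.300% of all genes were, namely Atf5, a transcription factor of the mitochondrial unfolded protein response. It rose with Cmpd60 from 15.0 ± 2.96 CPM (SD, n = 5) to 24.0 ± 1.82 CPM (SD, n = 6), by 0.68 ± 0.12 on the log2 scale (adjusted p = 0.026, edgeR), and none of these genes was called in the other 4 comparisons. Slirp, the partner of Lrpprc, differed by 0.08 ± 0.28 in kidney, -0.08 ± 0.08 in aged brain, 0.05 ± 0.15 in heart, -0.86 ± 0.48 in the APPSWE brain and -0.76 ± 0.46 in the littermate brain, with no call. Of the 4 choroid plexus markers tested in kidney, 1 was called, where 0.300% of all genes were, and 1 was above 0. The called gene, the carrier protein gene Ttr, fell by 1.43 ± 0.21 on the log2 scale (adjusted p = 0.0068, edgeR). These markers also hold counts in kidney, where the list summed to 252 to 377 CPM with Cmpd60 and 359 to 426 CPM with vehicle. Of the 7 heart markers, 1 was called in heart, where 1.18% of all genes were: Mybpc3, a sarcomere protein, fell by 0.42 (adjusted p = 0.016, edgeR), and 3 of the 7 were above 0.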

How the data were processed

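RNA from kidney, brain and heart was captured with oligo-dT beads and sequenced as stranded libraries, and the authors deposited 1 table of raw read counts per gene for each of the 54 samples. The submitters' processing notes name FastQC, Trimmomatic 0.32, HISAT2 2.1.0 and HTSeq 0.11.0; the genome build and the annotation used for counting are not given in the sources used here, although the study re-annotated genes with an Ensembl release. The 5 summary lines of each table were kept out of library sizes. Counts were tested with edgeR 4.0.16 (quasi-likelihood, TMM, keeping genes whose count was above 2 in 3 or more of the fitted libraries, Benjamini-Hochberg adjustment over all genes tested, threshold 0.05): each aged tissue on its own, the 20 APPSWE-cohort libraries in 1 fit, and all 34 aged libraries in 1 fit for tissue differences and differences in response. The step was tested on simulated data. SE is the absolute log2 fold change over the root of F. Ratios had 0.5 added to each count. DESeq2 1.42.0, limma 3.58.1 (voom), other filters and normalizations, and leaving out each library were alternatives. Genes were matched to nuclear chromosomes of NCBIM37 with BLAST 2.17.0 and exact windows; positions and lengths come from its GENCODE annotation. Groups follow titles and source names, since the treatment field of the kidney samples is the reverse of them. Labels do not say which tissues came from 1 mouse (the study used 6 Cmpd60-treated and 7 vehicle-treated aged mice), nor that replicates are separate mice, so p-values measure the spread between these samples. No 2 libraries were identical. Every member is named or given by range; tRNA and nuclear genes were named by calls or level. The members, lists and tests were chosen with earlier results of these data known.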

Additional observations from a re-analysis of the deposited data

Results flagged for a closer look

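Of 162 sets of values (a gene or share in 1 of the 10 groups of 4 to 6 libraries), 23 held a library whose gap to its nearest neighbour was large for the range of its group (Dixon's test at 95%), where chance gives about 1 in 20. Vehicle kidney 47 was the highest of its group for mt-Co2 (395 CPM, the others at 90.9 to 156), mt-Atp6 (162 CPM, the others at 42.8 to 62.4), mt-Co3 (262 CPM, the others at 88.0 to 104), mt-Nd4l (11.2 CPM, the others at 0.498 to 1.699) and mt-Nd6 (199.6 CPM, the others at 53.8 to 82.7). Cmpd60 heart 68 was the highest of its group for mt-Nd3 (23.9 CPM, the others at 8.95 to 12.0), mt-Nd4l (16.2 CPM, the others at 1.86 to 3.91) and mt-Nd6 (492 CPM, the others at 214 to 240).

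Cmpd60 kidney 50 stood high for mt-Nd1 (6896 CPM, the others at 4083 to 4799) and mt-Co2 (172 CPM, the others at 103 to 127), and Cmpd60 kidney 54 for mt-Atp8 (0.595 CPM, the others at 0 to 0.0548). Vehicle heart 66 held 13.8 CPM of mt-Atp8 where the others were at 0, and vehicle heart 64 held 15.7 CPM of mt-Nd3 (the others at 8.19 to 10.99). Cmpd60 heart 69 was highest for mt-Rnr1 (3389 CPM, the others at 2810.2 to 2971), and Cmpd60 heart 70 for mt-Nd5 (27783 CPM, the others at 22454 to 23242) and mt-Cytb (28878 CPM, the others at 24412 to 25620.2). Vehicle brain 32 was lowest for mt-Co3 (22.4 CPM, the others at 37.7 to 44.3).

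In the APPSWE cohort, 1 vehicle-treated littermate stood high for mt-Nd4 (1502 CPM, the others at 977 to 1083), mt-Cytb (3096 CPM, the others at 2453 to 2603) and mt-Atp6 (19.4 CPM, the others at 15.6 to 16.7), and Cmpd60-treated littermate 152 for mt-Nd3 (1.26 CPM, the others at 0.511 to 0.718). Cmpd60-treated transgenic mouse 147 stood high for mt-Atp6 (24.0 CPM, the others at 17.3 to 17.8) and mouse 141 for mt-Nd4l (0.742 CPM, the others at 0.184 to 0.272).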

How the results depend on the processing

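With DESeq2, 2 members were called in kidney (mt-Rnr1 and mt-Rnr2) and 2 in aged brain (mt-Nd4 and mt-Rnr1), where edgeR called none, and the fit over all 34 aged libraries called 2 in kidney. DESeq2 also called more genes over the whole table, 429 against 62 in kidney and 429 against 5 in brain. Without a filter on low counts, 1 member was called in the APPSWE brain (mt-Nd5). Leaving out each library in turn gave no called member in the 5 treatment comparisons, and the difference in the mt-Nd6 to mt-Nd5 ratio in aged brain ranged from -0.38 to -0.26, with an adjusted p of 0.032 (exact permutation) without vehicle brain 28. mt-Atp8 changed sign without vehicle heart 66, from 6.62 to -2.84 for heart against kidney and from 8.33 to -1.17 for heart against brain, since that library holds nearly all its counts, and the values without each library in turn reached 7.82 and 9.49. Of the values of single genes under the alternatives, 6399 kept their side of the threshold, of which 128 changed sign (none of these called before), 9 passed it only under the alternative, 6 no longer passed it, and 2 called values changed sign. For the other changes of call the cause was not tested. The difference in median mitochondrial share moved by less than the spread between replicates with all reads as the denominator or with the pseudogene Gm10222 added. That pseudogene holds so few counts that adding it could hardly move the share, from 15.3877% to 15.3887% in Cmpd60 heart 68. Reads aligned in more than 1 place were not part of this check. No paired analysis was possible because the groups share no replicate number. At these depths mt-Nd3, mt-Nd4l, mt-Atp8 and the tRNAs rest on few counts.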

Other observations

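The nuclear pseudogene Gm10222, of mitochondrial origin, held 210 counts in vehicle kidney 47, where the highest Cmpd60 kidney had 42, and 341 counts in Cmpd60 heart 68, the highest of its group (60 to 341), where the vehicle hearts had 73 to 96. It was the only one of 7 listed pseudogenes of this kind that the count files name.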
